A study of Mus musculus with 6 samples.

Results

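The imprinted genes described here are 42 named mouse genes, Plagl1 and the genes of the main imprinted domains, of which 38 had at least 1 probe set of their own on the array among 18193 genes so represented. They were chosen by name: each probe set whose annotated symbol was a listed gene was taken, all 3 probe sets were used for Plagl1, and for every other gene the brightest of its probe sets, by mean over all arrays, was read. The list was divided by the parental copy reported as active, taken from general knowledge and not from these data. In it 23 genes are known as paternally expressed (20 measured) and 17 as maternally expressed (16 measured). Grb10 and Gnas, whose active copy depends on the transcript or tissue, were kept apart. The copy active in the retina at embryonic day 12 was not measured, so that a gene of either list may not be imprinted in these cells. No probe set was matched to Rtl1, Dio3 or Zrsr1 in the annotation used, and that of H19 is annotated jointly with Mir675, so that these 4 genes were not analysed here.

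RNA came from distal retinal progenitor cells (RPCs) of ICR mouse embryos at embryonic day 12, sorted for GFP, in 3 control pools and 3 Pax6 mutant pools hybridised to Affymetrix MOE430-2 arrays. Control embryos carried the alpha-Cre transgene with wildtype Pax6, mutant embryos carried alpha-Cre with both Pax6 copies floxed, and GFP, made together with Cre from the transgene, marked the sorted cells of both groups. The transgene came through the mother in the crosses of both groups. The arrays read the summed RNA of both parental copies of a gene and cannot tell them apart. The 3 pools of a group are biological replicates by the methods, without a stated number of embryos in each, and the comparison asked which transcripts depend on Pax6 in RPCs. Values are log2 of the deposited RMA intensity, a measure of probe brightness after background correction and normalisation between arrays, and differences are mutant minus control on that log2 scale. A probe set was called higher or lower when its fold change was at least 1.5 (0.585 on the log2 scale), its two-sided limma p was under 0.05 and its Benjamini-Hochberg adjusted p over all 45037 probe sets was under 0.10.

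Imprinted genes are expressed mainly from the copy inherited from 1 parent. For most, though not all, this is because an imprinting control region was methylated in the egg or the sperm and keeps that methylation in the embryo. Many of them act on growth, placental function and the exit of progenitors from the cell cycle, and several are imprinted in the placenta or in neurons but not elsewhere. Plagl1, also called Zac1, encodes a zinc finger transcription factor that slows proliferation, binds at several imprinted loci, and has been studied in the mouse retina as a limit on cell number. The Dlk1-Dio3 domain carries the protein genes Dlk1, Rtl1 and Dio3, active on the paternal copy, and the noncoding RNAs Meg3, Rian and Mirg, active on the maternal copy, whose introns hold many small RNAs.

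The sequences just upstream of the genes the results turn on are given first, as 200 bases ending at the annotated start, from RefSeq on build GRCm38.p6, with each CG dinucleotide, the site of DNA methylation, in capitals. Plagl1 lies on chromosome 10 (chr10:13090632-13090831, plus strand), and Meg3, Rian and Mirg follow each other on chromosome 12 (chr12:109540796-109540995, chr12:109603745-109603944 and chr12:109734781-109734980, all on the plus strand).
Plagl1: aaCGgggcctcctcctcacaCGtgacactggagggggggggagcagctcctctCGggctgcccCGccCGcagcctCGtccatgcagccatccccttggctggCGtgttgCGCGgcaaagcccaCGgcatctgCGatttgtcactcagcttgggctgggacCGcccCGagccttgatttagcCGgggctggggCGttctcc
Meg3: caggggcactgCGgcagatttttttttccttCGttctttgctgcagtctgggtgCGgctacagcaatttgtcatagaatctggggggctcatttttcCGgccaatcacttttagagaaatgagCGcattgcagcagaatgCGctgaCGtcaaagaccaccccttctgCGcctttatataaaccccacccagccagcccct
Rian: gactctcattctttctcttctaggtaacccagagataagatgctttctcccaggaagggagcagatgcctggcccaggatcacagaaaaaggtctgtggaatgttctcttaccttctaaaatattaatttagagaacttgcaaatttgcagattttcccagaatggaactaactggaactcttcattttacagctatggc
Mirg: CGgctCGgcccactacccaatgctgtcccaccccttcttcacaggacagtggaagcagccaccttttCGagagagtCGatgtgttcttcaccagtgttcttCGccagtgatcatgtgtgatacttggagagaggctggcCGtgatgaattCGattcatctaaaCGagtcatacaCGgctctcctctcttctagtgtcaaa
The Plagl1 window held 15 CG, a number reached by 22.6% of 32851 such windows of all genes. The Meg3 and Mirg windows held 8 and 9 CG, numbers reached by 39.4% and 36.8% of all windows, and the Rian window held none, like 10.6% of all windows. Meg3 has a further annotated start whose window also held 0 CG. The median window held 5 CG, 36 of the 42 listed genes had a window in the table used, and methylation was not measured.

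The maternal noncoding RNAs of chromosome 12 are hosts of microRNAs, which the arrays do not measure and which are shown because the host RNAs differed between the groups. The RefSeq table used places 61 microRNA genes between Dlk1 and Dio3, of which 2 lie within Meg3, 3 within Rian and 10 within Mirg. Of the mature sequences 3 are printed with the seed, bases 2 to 8, in capitals; they are miR-453 (chr12:109735669-109735692) and miR-496a-5p (chr12:109739132-109739152) of Mirg and miR-370-5p (chr12:109618270-109618289) of Rian, all on the plus strand of GRCm38.p6.
miR-453: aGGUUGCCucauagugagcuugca
miR-496a-5p: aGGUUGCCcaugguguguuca
miR-370-5p: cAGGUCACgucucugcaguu
The first and second of these have the same seed, and the seed of miR-370-5p is shared with miR-1193-3p of the same domain. Such sharing is not typical of these hosts, because most of their mature sequences have a seed found in no other mature sequence of the domain.

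The array medians lay between 12.9 and 13.1 on the linear scale after normalisation. Of 5 Pax6 probe sets 1 was called lower, from 6.34, 6.44 and 6.14 in control pools to 4.79, 4.88 and 4.45 in mutant pools. The other 4 were not called, with differences of -0.22 to 0.10, and which of them lie in the floxed exons was not analysed here. Lists of marker genes differed between the groups in opposite directions. Of 11 measured RPC markers, Pax6 itself among them, 3 were called lower, against 0.918% of all genes. These were Sfrp2, Fgf15 and Dkk3, at -0.98, -1.43 and -1.03, while the others gave -0.40 to 0.06. The summed linear intensity of the list was 9922 to 10599 in control and 6896 to 7070 in mutant pools. Of 9 markers of newborn neurons 5 were also called lower (sums of 458 to 701 and of 282 to 338). Of 12 pigment epithelium markers 7 were called higher, against 2.28% of all genes. The sum of all 12 was 6454 to 7849 in control and 10440 to 10502 in mutant pools. Among 13 mesenchyme markers 6 were called higher (sums of 666 to 713 and of 1020 to 1419), and among 12 endothelial markers 4 were (sums of 846 to 1135 and of 1432 to 1550). In sorted pools fewer cells of a type and less RNA per cell cannot be told apart, and the part of this difference in makeup in any result on imprinted genes was not tested.

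Plagl1 was lower in Pax6-deficient RPCs by each of its 3 probe sets, and 1 of them was called. On probe set 1450533_a_at the log2 intensity was 6.98, 7.11 and 6.60 in the control pools and 6.05, 6.10 and 6.28 in the mutant pools. This is a difference of -0.76 (standard error 0.14, 95% confidence interval -1.08 to -0.43, adjusted p = 0.0282 from limma), and it was the only probe set of any of the 38 genes that was called lower. The groups did not overlap there, the nearest values being those of control replicate 3 and mutant replicate 3.

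The brightest Plagl1 probe set, 1426208_x_at, read 11.66, 11.87 and 11.74 in control and 11.42, 11.46 and 11.42 in mutant pools. Its difference of -0.33 (95% confidence interval -0.50 to -0.16, adjusted p = 0.0456 from limma) passed the p thresholds but not the 1.5-fold limit, and it was not called. The third probe set, 1438588_at, read 4.54, 4.58 and 4.51 in control and 4.17, 4.46 and 4.36 in mutant pools, a difference of -0.21 that did not pass (adjusted p = 0.223 from limma). On all 3 probe sets every mutant pool lay below every control pool, as did 15.1% of all probe sets on the array. Among all 45037 probe sets 0.984% were called lower. The call on 1450533_a_at was lost without mutant replicate 1 (-0.71, adjusted p = 0.103 from limma) or without mutant replicate 2 (-0.74, adjusted p = 0.1), and kept without each of the other 4 arrays. The paralogues Plag1 and Plagl2, which bind similar DNA motifs, were not called, with differences of -0.35 and -0.08. Plag1 was dim, below the array median on all 6 arrays, and its groups overlapped.

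**Figure D1:**
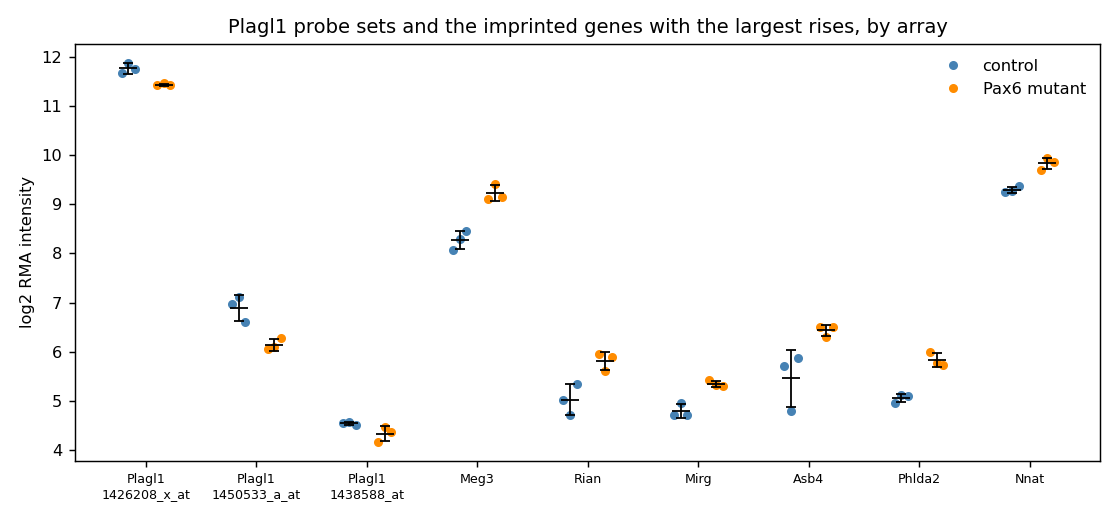
Log2 RMA intensity on each of the 6 arrays (vertical axis) for the 3 probe sets of Plagl1 and for the brightest probe set of Meg3, Rian, Mirg, Asb4, Phlda2 and Nnat; points are pools, horizontal bars are means and error bars are the SD of 3 pools. Mutant pools lie below control pools on every Plagl1 probe set and above them for the other 6 genes, and the low control pool of Asb4 is control replicate 2; heights are not comparable between genes.

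Over the 38 measured imprinted genes, 4 were called higher and 0 lower by the brightest probe set, against 2.28% of all genes called higher and 0.918% called lower. The 4 were Meg3, Rian, Asb4 and Phlda2, all from the maternally expressed list. At an adjusted limma p under 0.10 alone, without the fold limit, 8 genes were higher and 1, Plagl1, was lower, against 7.15% and 5.22% of all genes, and at an unadjusted p under 0.05 there were 11 higher and 4 lower, against 12.8% and 11.6% of all genes. In 14 genes every mutant pool was above every control pool and in 6 every mutant pool was below, against 17% and 16.4% of all genes. The median difference was 0.08 over the 38 genes and -0.01 over all genes. The count of 4 called higher was 2 without control replicate 1, 2 without mutant replicate 3, and 2 without limma's variance moderation.

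Of the 16 measured maternally expressed genes, 4 were called higher and 0 lower, against 2.28% and 0.918% of all genes. At an unadjusted limma p under 0.05, 6 were higher and 3 lower (Ppp1r9a, Nap1l4 and Gatm), against 12.8% and 11.6% of all genes. In this list 11 differences were positive and 5 negative, and the median was 0.07. Of the 20 paternally expressed genes, 0 were called in either direction (5 higher and 1 lower at an unadjusted limma p under 0.05, against 12.8% and 11.6% of all genes), 12 differences were positive and 8 negative, and the median was 0.08. Without mutant replicate 1 the maternal count was 2 and the paternal count 1. The 4 calls stood at the upper end of the maternal list, while its median was close to the paternal one. Whether the lists differ from each other was not tested, and with the probe sets limited to those without a suffix the paternal median was -0.02.

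**Figure D2:**
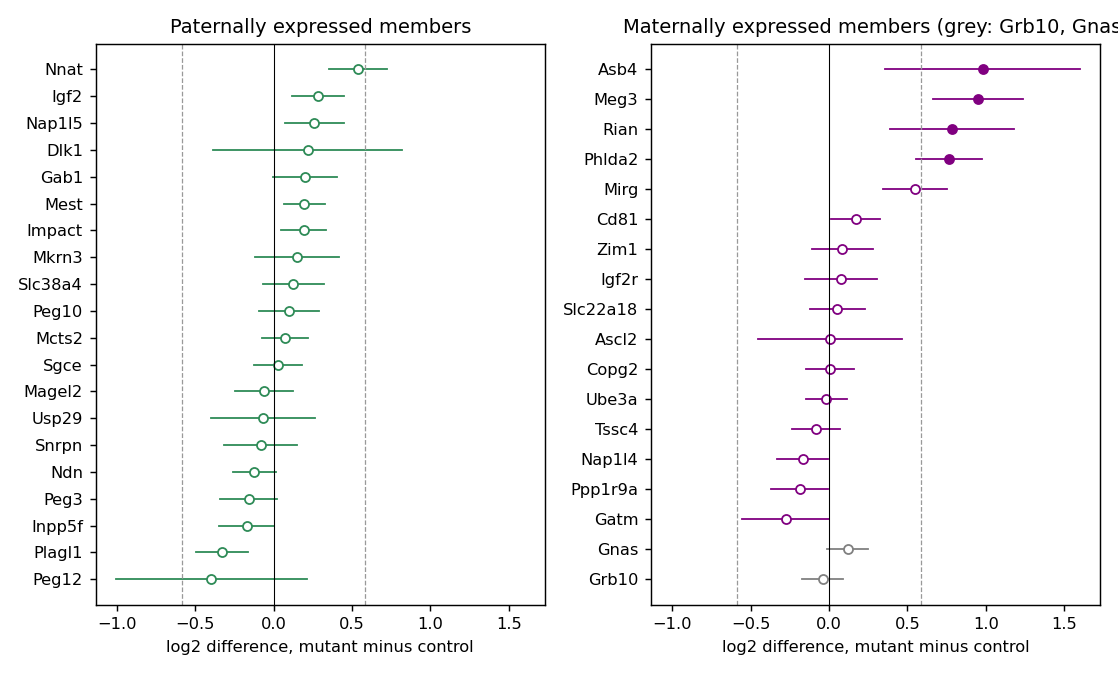
Log2 difference, mutant minus control, with its 95% confidence interval from limma (horizontal axis) for each measured imprinted gene by its brightest probe set. Paternally expressed genes are on the left and maternally expressed genes on the right, where Grb10 and Gnas, of neither list, are in grey. Filled points were called and dashed lines mark the 1.5-fold limit. The intervals of Asb4, Meg3, Rian, Phlda2, Mirg and Nnat lie above 0.3, and the differences of the other genes, without their intervals, lie between -0.40 and 0.28.

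Meg3 and Rian, which were called, and Mirg, which was not, are the maternal noncoding RNAs of the Dlk1-Dio3 domain. Meg3, a long noncoding RNA that restrains growth in several cell types, read 8.07, 8.30 and 8.45 in control pools and 9.10, 9.41 and 9.16 in mutant pools by its brightest probe set. It rose by 0.95 (standard error 0.12, 95% confidence interval 0.66 to 1.24, adjusted p = 0.0107 from limma), a fold change of 1.93, and the groups did not overlap. Meg3 has 11 probe sets, all 11 differences were positive, from 0.14 to 1.20, and 5 were called higher against 1.67% of all probe sets. The 5 that were called were the brightest, with differences of 0.70 to 1.20, while the 6 dimmer ones gave 0.14 to 0.39. In 10 of the 11 the mutant pools lay above the control pools on every array, as in 17% of all genes by the brightest probe set. Probe sets of 1 gene are not independent of each other. Taken as the median of its probe sets on each array, Meg3 differed by 0.31 (adjusted p = 0.0963 from limma) and was not called. By the brightest probe set it was called without any 1 of the 6 arrays, at 0.85 to 1.04.

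Rian, a noncoding RNA that hosts C/D box small nucleolar RNAs as well as microRNAs, read 5.03, 4.71 and 5.34 in control and 5.95, 5.60 and 5.89 in mutant pools. Rian rose by 0.79 (standard error 0.17, 95% confidence interval 0.39 to 1.18, adjusted p = 0.0452 from limma), and 3 of its 4 probe sets were called higher, with differences of 0.71 to 0.81. The fourth gave 0.30, and all 4 had the mutant pools above the control pools, as had 17% of all genes by the brightest probe set. The call of Rian was lost without control replicate 1 (0.79, adjusted p = 0.108), mutant replicate 1 (0.72, adjusted p = 0.144) or mutant replicate 3 (0.75, adjusted p = 0.137, all from limma).

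Mirg, the last of the 3 host RNAs, read 4.72, 4.96 and 4.72 in control and 5.42, 5.32 and 5.30 in mutant pools. The groups did not overlap and the difference of 0.55 (standard error 0.09, 95% confidence interval 0.34 to 0.75, adjusted p = 0.0189 from limma) passed the p thresholds, but at a fold change of 1.46 Mirg was just short of the 1.5-fold limit and was not called. Its second probe set gave 0.56. Without control replicate 2, the pool with the highest control value, Mirg differed by 0.63 (adjusted p = 0.0209 from limma) and was called.

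Dlk1, the paternally expressed gene at the other end of the domain, encodes a membrane protein of the Delta family that keeps several cell types undifferentiated. It read 6.94, 7.95 and 7.54 in control and 8.00, 7.54 and 7.53 in mutant pools, so that the groups overlapped. The Dlk1 difference was 0.22 with a 95% confidence interval of -0.39 to 0.82 (adjusted p = 0.681 from limma), an interval wide enough to hold both no difference and one of the size seen for Rian. Without control replicate 1, the lowest control pool, it was -0.05. Its other probe set was dim and gave -0.02. The difference between Dlk1 and the maternal RNAs was not tested.

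**Figure D3:**
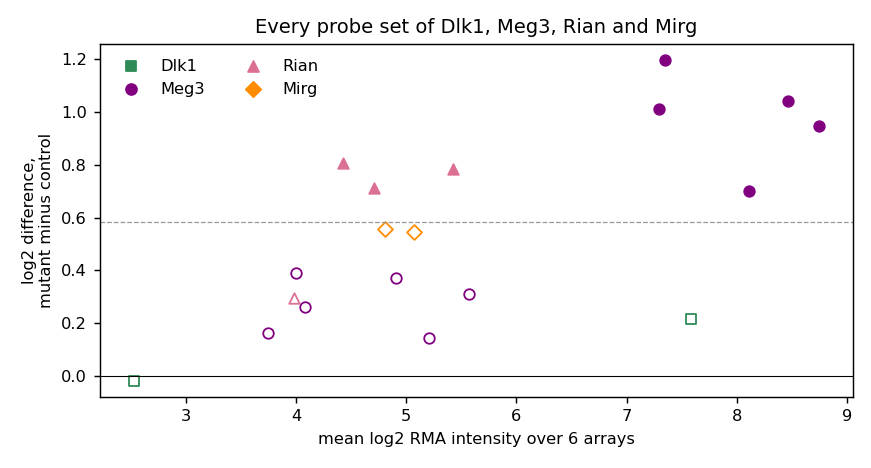
Log2 difference, mutant minus control (vertical axis), against the mean log2 intensity over 6 arrays (horizontal axis) for every probe set of Dlk1, Meg3, Rian and Mirg; filled symbols were called higher and the dashed line marks the 1.5-fold limit. The 5 brightest Meg3 probe sets lie above the line, the 2 Mirg probe sets just under it, and the Dlk1 probe sets at 0.22 and -0.02.

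A further call was that of Asb4 on chromosome 6, which encodes the substrate-binding part of a ubiquitin ligase and is active in the developing vasculature. Asb4 read 5.72, 4.79 and 5.86 in control and 6.50, 6.31 and 6.51 in mutant pools. The difference of 0.98 (standard error 0.26, 95% confidence interval 0.36 to 1.60, adjusted p = 0.0858 from limma) had the widest interval of the 4 calls, and control replicate 2 stood apart from the other control pools. The second Asb4 probe set gave 0.47 (adjusted p = 0.0634) and was not called. Control replicate 2 also had the lowest sum of endothelial markers, 846.2 against 1104 and 1135 in the other control pools. Its sums of pigment epithelium and of blood and macrophage markers were also the lowest of the control pools. Its sums of lens (2574.5) and mesenchyme markers (712.9) were the highest of the control pools, and a link of any of these to Asb4 was not tested. Asb4 was not called without control replicate 1 (1.11, adjusted p = 0.115), mutant replicate 1 (0.95, adjusted p = 0.219), mutant replicate 2 (1.05, adjusted p = 0.173) or mutant replicate 3 (0.95, adjusted p = 0.209, all from limma). Without control replicate 2 it was called, at a difference of 0.65. Its neighbours in this domain on the paternal and maternal lists did not pass by the brightest probe set. Peg10, a retrotransposon-derived placental gene, gave 0.10 at an intensity below the array median. Ppp1r9a, the gene of the actin-binding protein neurabin, gave -0.19, and Sgce, the gene of epsilon-sarcoglycan, gave 0.03. The dimmer Sgce probe set gave -0.42 (adjusted p = 0.0995 from limma), under the 1.5-fold limit. Pon3 and Pon2, imprinted genes of this domain outside those lists, were higher in every mutant pool than in any control pool. Pon3 rose by 0.46 (adjusted p = 0.0831 from limma), under the 1.5-fold limit, and Pon2 by 0.30 (adjusted p = 0.235 from limma). Casd1 (0.05), Tfpi2 (0.12) and Calcr (-0.08), also outside those lists, had overlapping groups.

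Phlda2, on chromosome 7, encodes a pleckstrin homology protein that limits placental growth, and read 4.96, 5.13 and 5.10 in control and 5.99, 5.77 and 5.73 in mutant pools. Phlda2 rose by 0.77 (standard error 0.09, 95% confidence interval 0.56 to 0.98, adjusted p = 0.00843 from limma), with no overlap. This was the smallest adjusted p of the 38 genes by the brightest probe set, while dimmer Meg3 probe sets gave 0.00316 and 0.00623 from limma. Phlda2 was called without any 1 of the 6 arrays, at 0.69 to 0.82, and has a single probe set. The other maternally expressed genes of the same domain on the list of 42 were not called. Cd81, a tetraspanin gene, gave 0.17, Slc22a18, a transporter gene, 0.05, Ascl2, a trophoblast transcription factor gene, 0.01, Tssc4 -0.08 and the histone chaperone gene Nap1l4 -0.17. Cdkn1c, which lies in the same domain but was not on the list of 42, encodes the cell cycle inhibitor p57. It was called higher, with a rise of 0.96 (adjusted p = 0.00216 from limma), from 9.64 to 10.60 on average. Osbpl5 (0.35), Kcnq1 (0.23), Kcnq1ot1 (0.07), Tnfrsf23 (0.02) and Tspan32 (-0.20), also of this domain and outside that list, were not called.

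Igf2, the paternally expressed growth factor gene of the neighbouring domain, was higher in all 3 mutant pools than in any control pool. It read 11.06, 11.24 and 11.14 in control and 11.47, 11.46 and 11.37 in mutant pools, a difference of 0.28 (95% confidence interval 0.12 to 0.45, adjusted p = 0.0696 from limma) that was under the 1.5-fold limit. Igf2r, the maternally expressed receptor that clears IGF2 from the cell surface, differed by 0.08 (95% confidence interval -0.15 to 0.31) and did not pass.

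Nnat, a paternally expressed gene on chromosome 2 for a small membrane protein of developing neurons, had the largest difference of the paternal list. Its log2 intensity was 9.24, 9.26 and 9.36 in control and 9.70, 9.93 and 9.85 in mutant pools, with no overlap. The difference of 0.54 (standard error 0.08, adjusted p = 0.0145 from limma) was a 1.45-fold change, so Nnat was not called. Without mutant replicate 1 it was called, at 0.60 (adjusted p = 0.0343 from limma). Mest, a paternally expressed gene of chromosome 6 that encodes a hydrolase-like protein of embryonic mesoderm, differed by 0.20 (adjusted p = 0.095 from limma), and its neighbour Copg2, a coat protein gene, by 0.01.

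The genes of the Prader-Willi and Angelman region of chromosome 7 and of the Peg3 domain were not called. Ndn, which encodes necdin, a protein that holds neurons out of the cell cycle, gave -0.12, and all 8 of its probe sets were negative, from -0.17 to -0.04. Magel2 gave -0.06, Mkrn3 0.15, Peg12 -0.40 and Snrpn -0.08; Peg12 had a 95% confidence interval of -1.01 to 0.21, and 6 further probe sets of Snrpn are annotated jointly with Snurf and were left out. Ube3a, a ubiquitin ligase gene that is maternally expressed in neurons, gave -0.02 (95% confidence interval -0.15 to 0.11). Peg3, a zinc finger gene, gave -0.16, Usp29 -0.07 and Zim1 0.08, and 4 of the 5 Peg3 probe sets were positive although the brightest was negative.

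The remaining genes also stayed below the limit. Of the paternal list these were Slc38a4 (0.12), Impact (0.19), Nap1l5 (0.26), Mcts2 (0.07), Inpp5f (-0.17) and the adaptor gene Gab1 (0.20). All 3 Gab1 probe sets were positive and without overlap, as were 17% of all genes by the brightest probe set. On the maternal list Gatm, an enzyme of creatine synthesis, gave -0.28 (95% confidence interval -0.55 to -0.00232). Grb10, a growth-restraining adaptor of the insulin receptor, gave -0.04 by its brightest probe set and 0.34 by another, and Gnas, the gene of a G protein alpha subunit, gave 0.12. Of the 22 genes with several probe sets, 13 had differences of 1 sign and 9 of both signs, so that small differences depend on the probe set read. Usp29, Mkrn3, Peg10, Nap1l5, Zim1 and Ascl2 lay below the array median on all 6 arrays, so that they were dim in both groups.

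Among 30 other measured imprinted genes, from a list of 35, 3 were called higher and 0 lower (8 higher and 1 lower at an unadjusted limma p under 0.05, against 12.8% and 11.6% of all genes), with a median of 0.06. The 3 were Cdkn1c, Dcn, the gene of the matrix proteoglycan decorin (0.81), and Cobl, an actin nucleator gene (0.67). Dcn is also 1 of the 6 mesenchyme markers that were called higher. The list of 21 imprint maintenance genes also holds Tet1, Tet2 and Tet3, which act in removing DNA methylation. Of these 21 genes, 0 were called by limma, and the median was -0.09. At an unadjusted limma p under 0.05, 0 were higher and 7 lower, against the same shares. Of these, Dnmt1, Dnmt3a and Dnmt3b, which encode DNA methyltransferases, Uhrf1, which brings DNMT1 to replicated DNA, and Ezh2, a histone methyltransferase, had adjusted p under 0.10, with differences of -0.24, -0.25, -0.32, -0.38 and -0.29, all under 1.5-fold. In 10 of the 21 every mutant pool lay below every control pool, as in 16.4% of all genes. Trim28 and Zfp57, which hold methylation at imprinting control regions, gave -0.07 and 0.09.

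**Figure D4:**
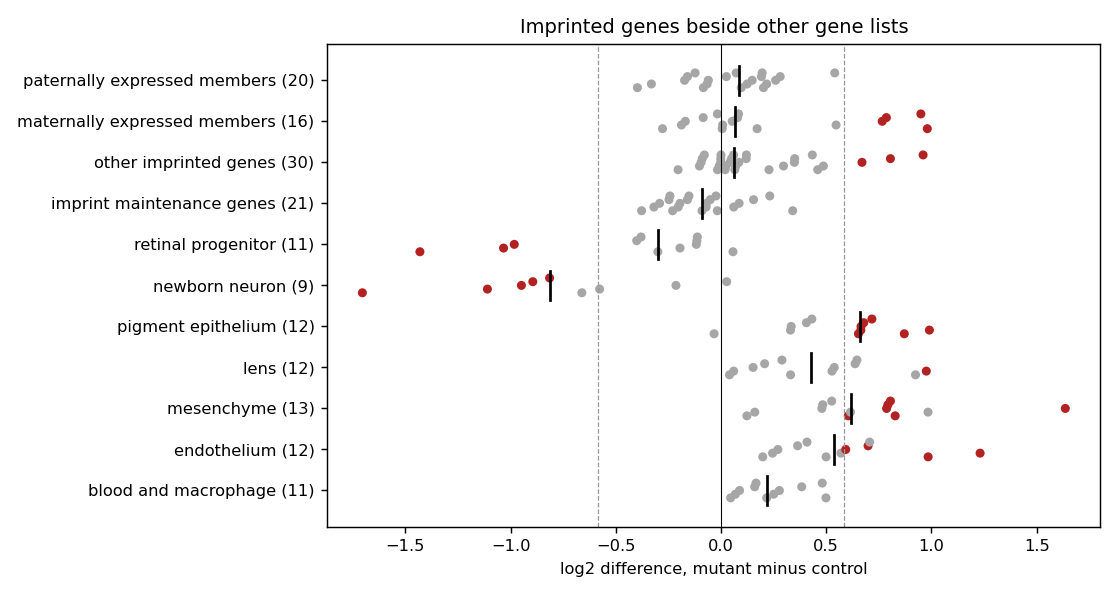
Log2 difference, mutant minus control (horizontal axis), for each gene of the paternal and maternal lists, the other imprinted genes, the imprint maintenance genes and 7 lists of cell type markers, with the number measured in brackets; red points were called, black bars are medians and dashed lines mark the 1.5-fold limit. The medians of the imprinted lists lie between 0.06 and 0.08, those of pigment epithelium and mesenchyme markers at 0.66 and 0.62, and that of newborn neuron markers at -0.81.

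The rises of Meg3, Rian, Asb4 and Phlda2 were in the direction of the pigment epithelium, mesenchyme, endothelial, lens, and blood and macrophage marker lists. The medians of these lists were 0.66, 0.62, 0.53, 0.43 and 0.22. The rises were opposite to the RPC and neuron lists, at -0.30 and -0.81. Of the 12 lens markers 1 was called, with sums of 1497 to 2574 in control and 2989 to 3459 in mutant pools, and of 11 blood and macrophage markers 0 were called (2 higher at an unadjusted limma p under 0.05), with sums of 7960 to 10255 and of 10250 to 10760. None of the 12 endothelial markers lay below the array median on all arrays, and 1 of the 13 mesenchyme and 1 of the 12 pigment epithelium markers did. The part of these cells in the imprinted gene results was not tested.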

How the data were processed

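Total RNA of 3 control and 3 mutant pools was measured on Affymetrix MOE430-2 arrays. The authors summarised probes by RMA, with Affymetrix Expression Console also named in the submitters' processing notes; no version or genome build is given in the sources used here. The deposited values are RMA intensity on a linear scale. Here log2 was taken, 64 control probe sets were left out and 45037 were fitted with limma 3.58.1 (R 4.3.3, lmFit and eBayes), without a block. The thresholds are those of the study's methods, whose further check by SAM was not repeated. A gene was read by its brightest probe set annotated to it alone (932 probe sets with several genes were left out, and 9160 have none). The limma step was tested on simulated data. All 42 listed genes are named, with values by array for Plagl1 and for each called gene; Mirg, Nnat, Dlk1 and Igf2 were given by array after their values were seen. The members and gene lists were chosen with earlier results of these data known. Sequences came from RefSeq tables of build GRCm38.p6. Alternatives were other scalings, an offset, a filter, array weights, a replicate block, other probe set rules and leaving out each array. Arrays give no depth, and 3 per group limits the precision.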

Additional observations from a re-analysis of the deposited data

How the results depend on the processing

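The number of imprinted genes called higher, 4, was 2 without variance moderation and 2 with 16 added to the intensities before log2, and leaving out each array gave 2 to 5 (2 without control replicate 1 and without mutant replicate 3). Without moderation Meg3 and Phlda2 were called, and Rian (0.79, adjusted p = 0.193 from limma's fit) and Asb4 (0.98, adjusted p = 0.269) were not. With 16 added, Rian (0.57) and Phlda2 (0.56) were under the 1.5-fold limit, which this offset lowers by construction for dim probe sets. The number called lower, 0, was 1 with the median of each gene's probe sets, where Plagl1 was read by 1450533_a_at on each array and gave -0.76 (adjusted p = 0.0168 from limma), and 0 without each array in turn. Without moderation the Plagl1 probe set 1450533_a_at was not called (adjusted p = 0.152). The median of the paternally expressed genes was -0.02 with probe sets limited to those without a suffix. Over the whole array 1195 probe sets were called, 460 without moderation and 517 with 16 added. Subtracting array medians, normalising by quantiles again, leaving out the dimmest 40% and array weights each left 4 genes called higher and 0 lower. No called gene changed sign under the alternatives run, but 10 genes that were not called did with another probe set rule or 1 array left out, among them Peg3 (0.14), Grb10 (0.34) and Sgce (-0.20) by the median of their probe sets.

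Pool numbers are shared between the groups in the labels, but same-numbered pools did not deviate together (correlations of -0.01, 0.00 and -0.01). These correlations cannot show whether same-numbered pools were collected or hybridised together, and the main fit used no pairing. With the replicate number as a block 1136 probe sets were called, 4 imprinted genes were higher and 0 lower, and the medians of the maternal and paternal lists were 0.07 and 0.08.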
